A study of Mus musculus with 2 samples.

Results

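Regular arrays of nucleosomes were examined in the nucleosome maps of mouse embryonic stem (ES) cells with conditional Brg1 alleles, treated with tamoxifen or ethanol. An array was defined as a maximal run of 5 or more successive calls on 1 of the 19 autosomes in which each call centre, the midpoint of start and end, lay 150 to 230 bp from the next. The arrays were thus chosen by the measured positions of the calls in each library's own list, and their number and spacing are given as description. There were 1243 arrays in the ethanol library and 1458 in the tamoxifen library, 2701 in all, out of 2724853 called nucleosomes in the series. They held 6760 of 1289694 autosomal ethanol calls (0.524%) and 7865 of 1413182 autosomal tamoxifen calls (0.557%).

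The cells of both groups were Brg1fl/fl ES cells with an Actin-CreER transgene, grown in serum and LIF on gelatin. One group received 0.8 µM tamoxifen, which activates the Cre recombinase, and the other the same volume of ethanol. Either agent was present for 24 hours and was followed by 48 hours without it. Nuclei were digested with MNase and the mononucleosome DNA of the 12 U digest was sequenced, with 1 library per group. With a single library on each side the groups could not be tested against each other. All intervals below are at the 95% level, cover counting error and treat arrays or calls as independent, so they do not cover the spread between cultures or digests. A nucleosome missing from a list may have failed the authors' cutoffs, whose values no source used here gives, and the read depth is unknown. Loss of Brg1 itself cannot be checked from these lists.

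In chromatin, nucleosomes are separated by linker DNA, and the distance from one nucleosome centre to the next is the repeat length. Arrays form where a barrier such as a bound factor or a nucleosome-free promoter sets the phase and remodelers space the nucleosomes beside it. CHD and ISWI enzymes are known for spacing activity, whereas SWI/SNF complexes, of which esBAF with its ATPase Brg1 is the ES cell form, are known for sliding and evicting nucleosomes. Micrococcal nuclease (MNase) cuts linker DNA, so a called nucleosome marks a place where protected fragments piled up. A regular array in such a list requires a call at every position, and the list does not give the number of cells behind a call.

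Most arrays had the minimum length in both libraries. Arrays of exactly 5 calls numbered 866 with ethanol (69.7%) and 1053 with tamoxifen (72.2%), and those of 6 calls 258 and 282. There were 86 and 85 arrays of 7 calls, 24 and 30 of 8 calls, and 6 and 7 of 9 calls. Only 3 ethanol arrays, of 10, 11 and 13 calls, and 1 tamoxifen array, of 10 calls, were longer. Just outside the limit of 5 calls lay 3781 ethanol and 4354 tamoxifen runs of 4 calls. From first to last centre the median ethanol array reached 795 bp and the median tamoxifen array 790 bp. Summed over arrays the spans came to 1062 and 1230 kb.

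The tamoxifen library held both more arrays and more calls. The 1243 ethanol arrays had a Poisson interval of 1175 to 1314 and the 1458 tamoxifen arrays one of 1384 to 1535, a ratio of 1.17 (1.09 to 1.27). Autosomal calls were 1.10 times as many. The ethanol library had 0.964 arrays per 1000 autosomal calls and the tamoxifen library 1.03, a ratio of 1.07 (0.992 to 1.15) whose interval includes 1. Arrays per 1000 calls rise with the local density of calls, as given further on. Dividing by the number of calls thus does not remove the difference in list size. The number was higher with tamoxifen on 15 of 19 autosomes, lower on 3 and equal on 1, whereas the number per 1000 calls was higher on 11 and lower on 8. When the tamoxifen list was limited to its highest-scoring calls, as many as the ethanol list has, it held 1120 arrays, and the ratio per 1000 calls turned to 0.901. The direction of the difference in arrays per 1000 calls thus depended on which calls were admitted.

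Spacing within the arrays differed between the libraries by less than 1 step of the 5 bp on which centres can lie. The distance between neighbours averaged 192.4 bp (SD 21.2, n = 5517 distances) with ethanol and 192.0 bp (SD 20.8, n = 6407) with tamoxifen, with a median of 190 bp in each. Over arrays, the mean spacing averaged 192.4 bp (SD 10.8) and 192.1 bp (SD 10.4), a difference, tamoxifen minus ethanol, of -0.352 bp (interval -1.16 to 0.452). The most frequent distances were 200 bp with ethanol (446 distances) and 195 bp with tamoxifen (543). Single arrays ran from 157.5 to 225 bp with ethanol and from 162.5 to 222.5 bp with tamoxifen. Closely spaced arrays, with a mean below 180 bp, made up 11.1% and 11.2%, arrays of 180 to 200 bp 66.4% and 68.7%, and widely spaced arrays above 200 bp 22.5% and 20.0%. Spacing did not shift with length, since arrays of 7 or more calls averaged 192.7 bp with ethanol and 191.2 bp with tamoxifen.

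**Figure D1:**
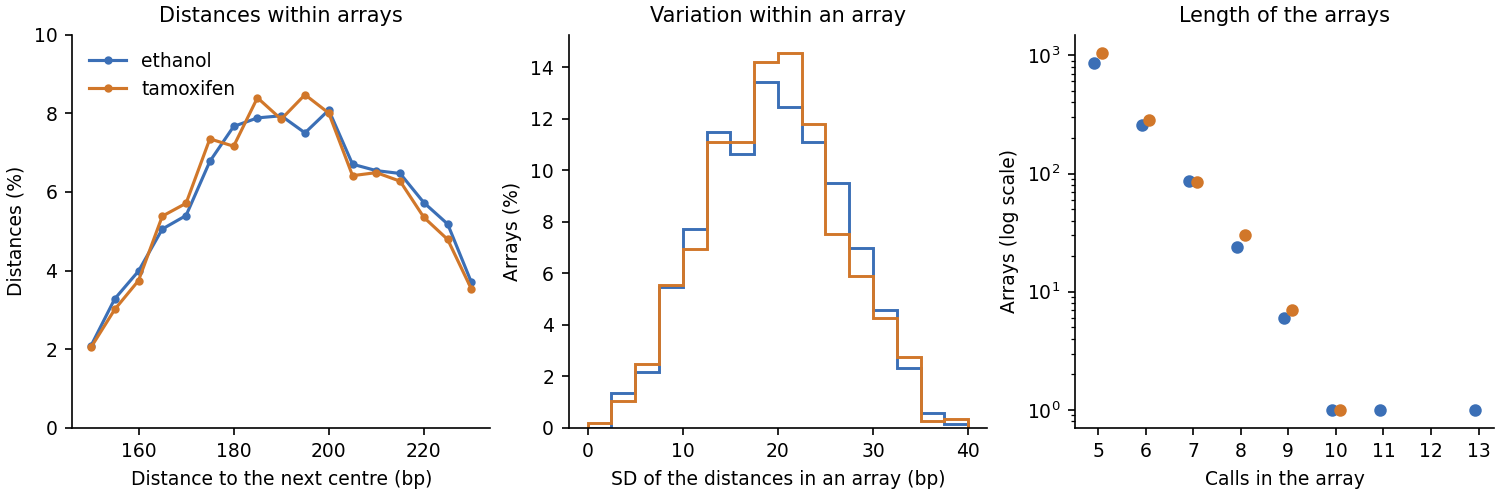
Left, distances between neighbouring centres within arrays (bp) as a percentage of all such distances. Middle, SD of the distances within each array (bp) as a percentage of arrays. Right, number of arrays (log scale) by the number of calls they hold. Blue is the ethanol and orange the tamoxifen library. The curves of both libraries peak between 185 and 200 bp and nearly coincide.

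Distances in arrays were only slightly less spread than those of isolated pairs of calls. The SD of the distances within an array averaged 19.6 bp with ethanol and 19.5 bp with tamoxifen, with medians of 19.4 bp in both, and quartiles of 14.4 to 24.8 bp and 14.7 to 24.0 bp. The rule bounds this measure, since distances spread evenly over its limits would have a mean of 190 bp and an SD of 24.5 bp. The reference from the same lists is pairs of calls that lie 150 to 230 bp apart without a further such neighbour. These had a mean distance of 192.3 bp in each library and SDs of 22.3 bp (n = 111823) and 22.2 bp (n = 123843), against the 21.2 and 20.8 bp of array distances. Neighbouring distances within an array, which share a centre, were hardly related (Pearson's r = 0.044 over 4274 successive pairs with ethanol and 0.020 over 4949 with tamoxifen, given as description). Centres lay 10.8 and 10.7 bp (root mean square) from the best straight line through their array. Some arrays were highly even: 112 of 1243 ethanol and 135 of 1458 tamoxifen arrays had an SD below 10 bp. In 21 and 26 the largest and smallest distance differed by at most 10 bp. Most arrays hold only a few distances, so low SDs do not show a separate kind of array. Near the limits of the rule, 296 ethanol distances were 150 or 155 bp and 490 were 225 or 230 bp. Just outside, 37 ethanol ends had their next call at 140 or 145 bp and 71 at 235 or 240 bp. With tamoxifen these counts were 324 and 533 inside and 43 and 80 outside.

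Calls in arrays scored higher than all autosomal calls together, but this was not particular to arrays. Their median was 112.4 with ethanol and 110.6 with tamoxifen, against 104.5 and 101.6 for calls of runs of 4. From edge to middle, medians pooled over calls changed little with ethanol and rose somewhat with tamoxifen. Compared within arrays, the libraries did not differ in this way. The score is the authors' own and was not used to find the arrays. Among ethanol arrays the median score was 110.9 for the outermost calls, 112.4 for the second, 112.4 for the third and 103.05 for calls further in, which number only 168. With tamoxifen the medians were 107.5, 110.9, 112.4 and, over 170 calls, 140.75. The first call outside an array had a median of 104.5 with ethanol and 101.6 with tamoxifen, and all autosomal calls one of 86 in each list. In arrays of 7 or more calls the medians from the end inward were 118.25, 121.7, 120.2 and 98.8 with ethanol and 124.1, 133.9, 142 and 137.9 with tamoxifen. In arrays of 5 they were 108.4, 111 and 108.1 with ethanol and 104.5, 107.5 and 108.1 with tamoxifen. The higher inner scores with tamoxifen were thus largest in its long arrays, which number 123. Calls further in than the third occur only in arrays of 7 or more, so the pooled medians mix arrays of different length.

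Taken array by array, the inner calls had the higher mean score in 654 of 1243 ethanol arrays (52.6%) and 757 of 1458 tamoxifen arrays (51.9%). The highest call sat at an end in 39.7% of arrays in each library, while end positions make up 37.4% and 37.6% of an average array. The median log2 ratio of inner to end mean score was 0.0571 with ethanol and 0.0353 with tamoxifen. Within arrays the inner calls were thus not further above the ends with tamoxifen. Pooled over calls, inner minus end, the median score differed by 1.5 with ethanol, with an interval that includes 0 (-3.30 to 6.30). With tamoxifen it differed by 4.9 (0.470 to 9.33). Scores within an array were uneven, the highest call having a median of 3.38 times the score of the lowest with ethanol and 3.33 times with tamoxifen. In only 200 ethanol (16.1%) and 238 tamoxifen arrays (16.3%) did every call reach the median score of its list.

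Array calls averaged 98.9 bp in width with ethanol and 98.8 bp with tamoxifen, which was not particular to arrays. Runs of 4 averaged 99.3 bp in both libraries, and calls outside arrays in dense groups of 5, described further on, 100.7 and 100.8 bp. Within arrays the width differed between edge and middle. Outermost calls averaged 102.8 bp in width with ethanol and 102.5 bp with tamoxifen, against 96.4 and 96.5 bp for the second call from the end and 97.0 and 96.8 bp for the third. The first call outside measured 111.7 and 111.4 bp, and all autosomal calls 112.3 bp in both lists. Outermost calls, with a regular neighbour on 1 side, were close to the calls of isolated pairs, which measured 103.4 and 103.5 bp. Whether close neighbours narrow the calls through the caller was not tested.

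**Figure D2:**
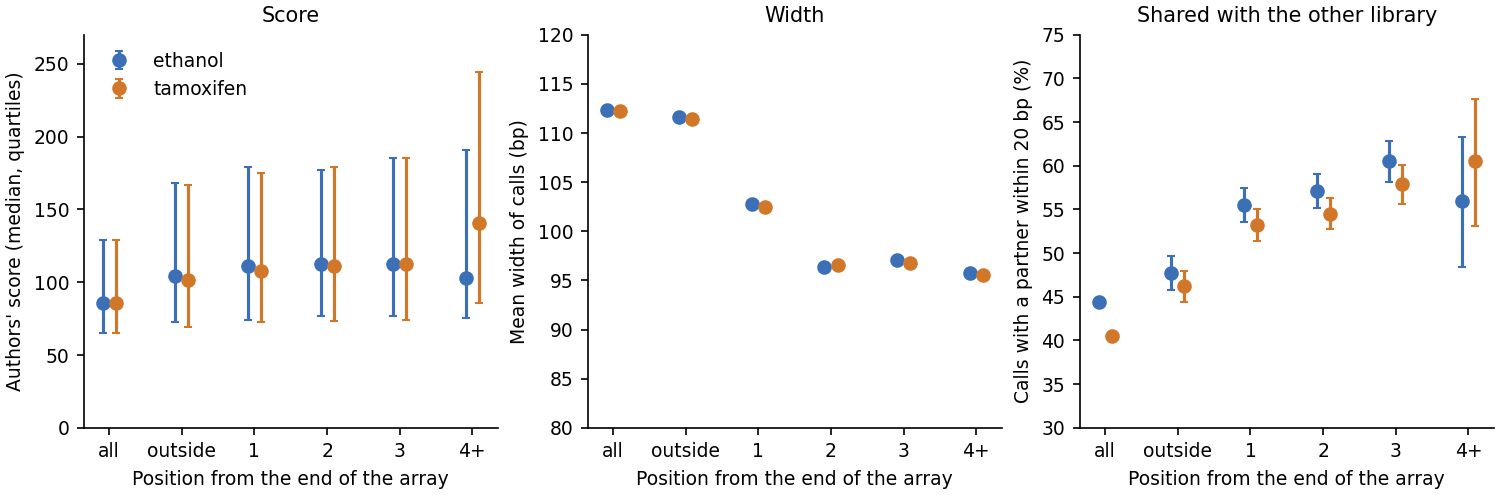
Left, the authors' score (points, median; bars, quartiles); middle, mean width of calls (bp); right, percentage of calls with a call of the other library within 20 bp (bars, Wilson intervals). The horizontal axis gives all autosomal calls, the first call outside an array, and array calls by position from the nearer end. Mean width is 111.7 and 111.4 bp outside and 96.4 to 97.0 bp at positions 2 and 3, whereas the median score stays between 107.5 and 112.4 at positions 1 to 3 in both libraries.

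What the other library held at the same place was examined over the interval from 75 bp before the first to 75 bp after the last centre of each array. The interval was classed as a full array if it held a run of 5 or more regularly spaced calls of the other library, as a partial array for a longest run of 3 or 4, and as few calls otherwise. Of the 1243 ethanol arrays, the tamoxifen library held a full array at 214 (17.2%, Wilson interval 15.2 to 19.4%), a partial one at 470 (37.8%, 35.2 to 40.5%) and few calls at 559 (45.0%, 42.2 to 47.7%). Of the 1458 tamoxifen arrays, the ethanol library held a full array at 213 (14.6%, 12.9 to 16.5%), a partial one at 516 (35.4%, 33.0 to 37.9%) and few calls at 729 (50.0%, 47.4 to 52.6%). The Wilson intervals of the full class overlap. With the tamoxifen list limited to its highest-scoring calls the full class made up 15.3% of ethanol and 17.0% of tamoxifen arrays, so the order turned.

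Incomplete intervals were rarely empty. The other library had a median of 4 calls in the interval in both directions, and no call at all in 2 ethanol and 4 tamoxifen arrays. As many calls as the array itself, or more, were present in 19.1% and 16.4% of intervals. Among the intervals without a full array, 31.5% (324 of 1029) of those of ethanol arrays and 29.4% (366 of 1245) of those of tamoxifen arrays lacked a partner within 40 bp for exactly 1 call. In these intervals 31.8% of ethanol array calls and 33.8% of tamoxifen array calls had no call of the other library within 80 bp, and 16.5% and 16.4% had one 25 to 80 bp away. The order was the same over all autosomal calls, of which 35.7% (ethanol) and 41.3% (tamoxifen) had no call of the other library within 80 bp. A further 12.6% and 11.5% of all calls had one over 20 and up to 40 bp away, and 7.27% and 6.66% one over 40 and up to 80 bp away.

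Arrays that were complete in the other library had higher scores and, over all lengths together, slightly more even distances. The full class applies the same distance limits to the other list. Where a distance lies near a limit, a small shift of a shared call can break the run there. The link between evenness and class thus follows in part from the rule, and whether any of it goes beyond the rule was not tested. Among ethanol arrays the median of the array mean score was 155.1 for the full class, 133.5 for the partial and 119.7 for the few class. Among tamoxifen arrays the same medians were 152.6, 139.6 and 114.8. The SD of the distances within an array averaged 18.2 bp (SE 0.455), 19.8 bp (SE 0.308) and 20.0 bp (SE 0.314) over the 3 ethanol classes and 17.6 bp (SE 0.437), 18.9 bp (SE 0.297) and 20.4 bp (SE 0.262) over the tamoxifen classes. Among the 119 ethanol arrays of 7 or more calls the order did not hold, with 18.7, 18.7 and 17.8 bp. Mean spacing did not follow this order either and lay between 191.4 and 192.8 bp in all 6 groups. The full class was larger for longer arrays, with 14.1% of ethanol arrays of 5 calls, 21.3% of those of 6 and 31.1% of those of 7 or more (11.2%, 21.3% and 28.5% with tamoxifen), although a longer interval also gives more room for a run of 5. As a reference just below the limit, 18.0% of the ethanol and 16.1% of the tamoxifen runs of 4 faced a run of 4 or more in the other library.

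**Figure D3:**
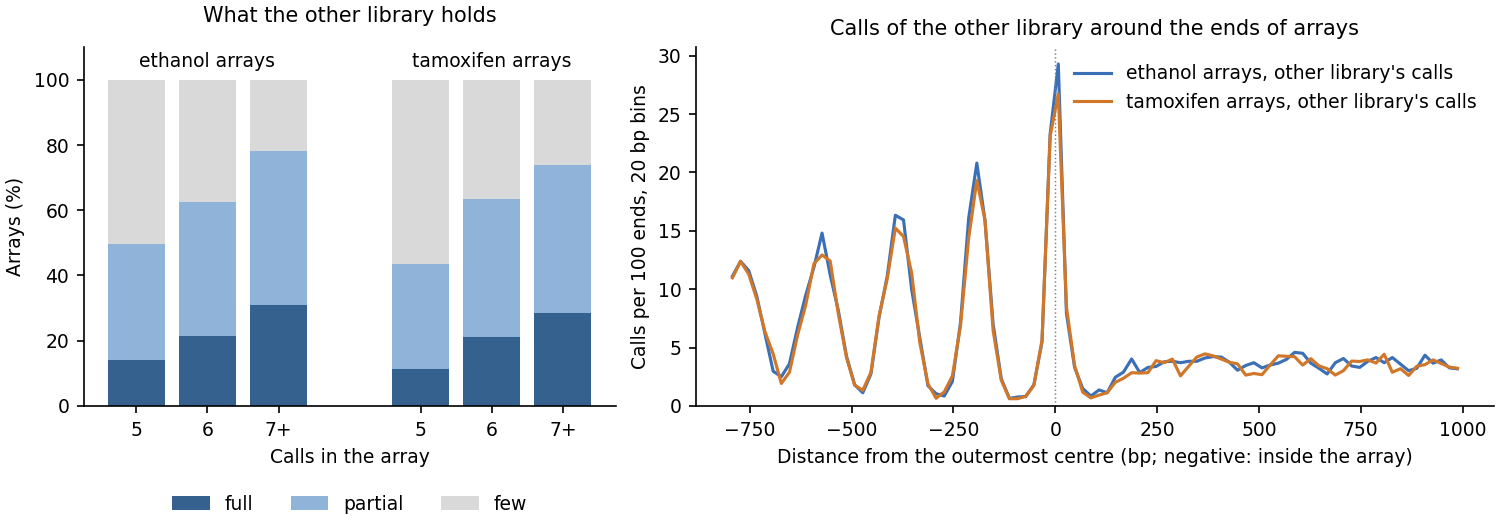
Left, percentage of ethanol and tamoxifen arrays of 5, 6 and 7 or more calls at which the other library held a full array, a partial array or few calls. Right, calls of the other library per 100 array ends in 20 bp bins by distance from the outermost centre (bp). Inside the arrays (negative distances) the other library's calls form sharp peaks near each repeat, and outside, past a low first linker, they stay between 8.61 and 14.1 per 100 ends when counted in the wider windows given in the text.

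Counted by call, the positions within arrays were shared between the libraries more often than other positions. A tamoxifen call lay within 20 bp of 57.3% (56.1 to 58.5%) of ethanol array calls, whereas 44.4% of all autosomal ethanol calls had such a partner. In the other direction the share was 55.0% (53.9 to 56.1%) of tamoxifen array calls, against 40.5% of all autosomal tamoxifen calls. Because array calls score higher and lie in denser regions, the shares were also taken within 4 score classes that split each list about evenly. In the lowest class 35.3% (32.4 to 38.3%) of ethanol array calls and 28.6% of the remaining ethanol calls were shared, and in the highest 72.1% (70.4 to 73.7%) and 63.9%. For tamoxifen the same shares were 33.7% (31.1 to 36.4%) and 23.4% in the lowest class and 70.5% (68.9 to 72.1%) and 62.7% in the highest. Array calls were shared more often in each of the 4 score classes of both lists.

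Calls outside arrays that lay in any group of 5 successive calls spanning 600 to 920 bp, like arrays of 5, gave a second reference. Such groups can hold shorter regular runs or reach into an array, so this reference is not free of regular spacing. These calls had a median score of 108.1 with ethanol and 104.5 with tamoxifen, close to the 112.4 and 110.6 of all array calls. The 10 kb centred on each held a median of 20 calls, against 20 and 21 for array calls. Of these calls outside arrays 49.4% (48.8 to 50.0%, n = 26204) and 47.5% (46.9 to 48.0%, n = 28526) were shared, fewer than in arrays. The shared part was larger in longer runs up to a point, and went from 43.0% for ethanol calls without a regular neighbour over 47.9%, 51.7% and 54.7% for runs of 2, 3 and 4 to 56.4%, 58.2% and 62.1% for arrays of 5, 6 and 7 calls. Ethanol arrays of 8 or more stood at 55.7% (49.9 to 61.4%, n = 280 calls). For tamoxifen it went from 38.8% for single calls to 53.0%, 59.3%, 58.8% and 57.5% for arrays of 5, 6, 7 and 8 or more. Within arrays, 55.5% (53.6 to 57.5%) of the outermost, 57.1% (55.2 to 59.1%) of the second and 60.5% (58.1 to 62.8%) of the third ethanol calls were shared, and 53.2%, 54.5% and 57.9% of the tamoxifen calls. Further in, the shares were 56.0% (48.4 to 63.2%) and 60.6% (53.1 to 67.6%). Array calls without a call of the other library within 80 bp had a median score of 80.1 with ethanol and 79.5 with tamoxifen, whereas shared ones stood at 133.9 in each.

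Where arrays of both libraries overlapped, their mean spacing differed little. The rule bounds the spacing in both lists and overlapping arrays can share calls, so a small difference follows in part from the choice. There were 258 pairs of overlapping arrays, involving 258 ethanol arrays (20.8% of them) and 256 tamoxifen arrays (17.6%). Their mean spacing averaged 192.1 bp with ethanol and 191.7 bp with tamoxifen, a difference of -0.419 bp (SD 7.76 over pairs). The tamoxifen array was the wider in 113 pairs, the narrower in 132 and equal in 13, and the difference was at most 5 bp in 139 pairs (53.9%). Within-array SDs averaged 18.5 and 17.9 bp, a difference of -0.534 bp (SD 8.02). The tamoxifen array had more calls in 70 pairs and fewer in 60. The remaining 985 ethanol and 1202 tamoxifen arrays overlapped none of the other library. As a reference, 18.0% of ethanol and 16.1% of tamoxifen runs of 4 calls faced a run of 4 or more. Overlap is a looser measure, since arrays can overlap by only part of their calls. For arrays the like measure is the full class, at 17.2% of ethanol and 14.6% of tamoxifen arrays. Of all autosomal calls, 44.4% with ethanol and 40.5% with tamoxifen had a partner within 20 bp.

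In a library's own list, distances to the next call past the ends showed no clear excess at 2 repeats. By the rule the next call of the same list cannot lie 150 to 230 bp beyond the outermost centre, but a single missing call would leave a distance of 2 repeats. Distances of 340 to 430 bp to the next call occurred at 440 of 2486 ethanol ends and distances of 240 to 330 bp at 439, a ratio of 1.00 (0.878 to 1.14), against 0.986 for the same distances between all successive autosomal calls. With tamoxifen the counts were 566 and 506, a ratio of 1.12 (0.992 to 1.26), against 1.07. Both values were near those of the whole lists. The ratio cannot decide whether the pattern stops, since distances of 240 to 330 bp can also hold a long single repeat or 2 short ones. The next call beyond an array was nonetheless close, at a median of 550 bp with ethanol and 545 bp with tamoxifen among distances above 230 bp, against 1025 and 975 bp for all such distances.

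Calls of the other library were also counted around the ends. The lists share many calls, with 44.4% of ethanol and 40.5% of tamoxifen autosomal calls having a partner within 20 bp. Few calls of the other library at the first repeat outside thus follow in part from the rule. Per 100 ends of ethanol arrays there were 62.6 tamoxifen calls within 30 bp of the outermost centre, 55.3 at the first repeat inside (160 to 220 bp) and 46.9 at the second (355 to 415 bp), with 2.45 and 3.86 in the linkers between. Outside, there were 10.9 at the first repeat, 12.5 in the following linker (260 to 320 bp) and 13.4 at the second repeat. Around all autosomal ethanol calls the same windows held 10.4, 5.59 and 7.92 tamoxifen calls per 100 sides. The position where an array would continue was thus no fuller in the other library than the linker beyond it.

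Further out the repeats and linkers differed less than inside the arrays. Second repeat over second linker was 1.08 (0.923 to 1.26) outside ethanol arrays and 1.28 (1.10 to 1.48) outside tamoxifen arrays, against 1.42 around all autosomal calls. The third repeat over the third linker gave 1.24 (1.06 to 1.45) and 1.43 (1.22 to 1.67), against 1.24. The ethanol value for the second repeat lay below the value of all calls. The other 3 intervals include the value of all calls and lie above 1, so repeats were fuller than linkers there.

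Arrays lay where calls were dense. The 10 kb around an array held a median of 19 ethanol calls (quartiles 15 to 24), against 9 around all autosomal ethanol calls. With tamoxifen the medians were 20 (15 to 26) and 10. Another array of the same library lay within 10 kb of 155 ethanol arrays (12.5%) and 218 tamoxifen arrays (15.0%), while the median distance to the nearest array was 123 kb and 96.5 kb. Ethanol arrays occurred in 561 windows of 1 Mb, of which 326 held just 1 array and 15 held 10 or more. Tamoxifen arrays occurred in 617, of which 341 held 1 and 19 held 10 or more.

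Chromosomes 8 and 12 held 479 ethanol arrays (38.5%) and 596 tamoxifen arrays (40.9%), with 16.8% and 16.7% of the calls. Chromosome 8 had 297 ethanol arrays, 2.52 per 1000 calls (2.24 to 2.83), and 381 tamoxifen arrays, 3.00 per 1000 (2.70 to 3.31). Chromosome 12 had 182 and 215, that is 1.84 (1.58 to 2.13) and 1.97 (1.72 to 2.26) per 1000. The other 17 autosomes ranged from 0.351 to 1.09 per 1000 ethanol calls and from 0.352 to 1.05 per 1000 tamoxifen calls. The densest windows were on these 2 chromosomes: 124000001 to 125000000 on chromosome 8 had 22 ethanol and 30 tamoxifen arrays, and the next, 125000001 to 126000000, had 23 and 22. On chromosome 12 the window from 113000001 to 114000000 had 22 and 28, and that from 114000001 to 115000000 had 17 and 18.

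At equal local density the 2 chromosomes did not stand out in this way. Among ethanol calls with 21 to 25 calls within 5 kb on either side, arrays per 1000 calls numbered 4.94 (4.19 to 5.78) on chromosomes 8 and 12 and 5.35 (4.48 to 6.34) on the other autosomes. At 26 to 30 calls the values were 9.52 (7.99 to 11.3) and 9.36 (6.52 to 13.0). At 16 to 20 calls they were lower on chromosomes 8 and 12, at 1.84 (1.47 to 2.29) against 2.63 (2.33 to 2.95). With tamoxifen, the pairs of values were 4.78 (4.11 to 5.53) and 5.99 (5.15 to 6.93) at 21 to 25 calls and 11.4 (9.88 to 13.1) and 8.97 (6.46 to 12.1) at 26 to 30 calls. Local density counts the array's own calls, so arrays are in part denser by construction. Over all autosomes, arrays per 1000 calls at 16 to 20 calls numbered 2.40 (2.16 to 2.65) with ethanol and 2.04 (1.84 to 2.26) with tamoxifen. Above 30 calls they numbered 17.4 (13.8 to 21.7) and 18.98 (15.7 to 22.7). The intervals overlap, but overlap of separate intervals does not show that the libraries were alike.

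**Figure D4:**
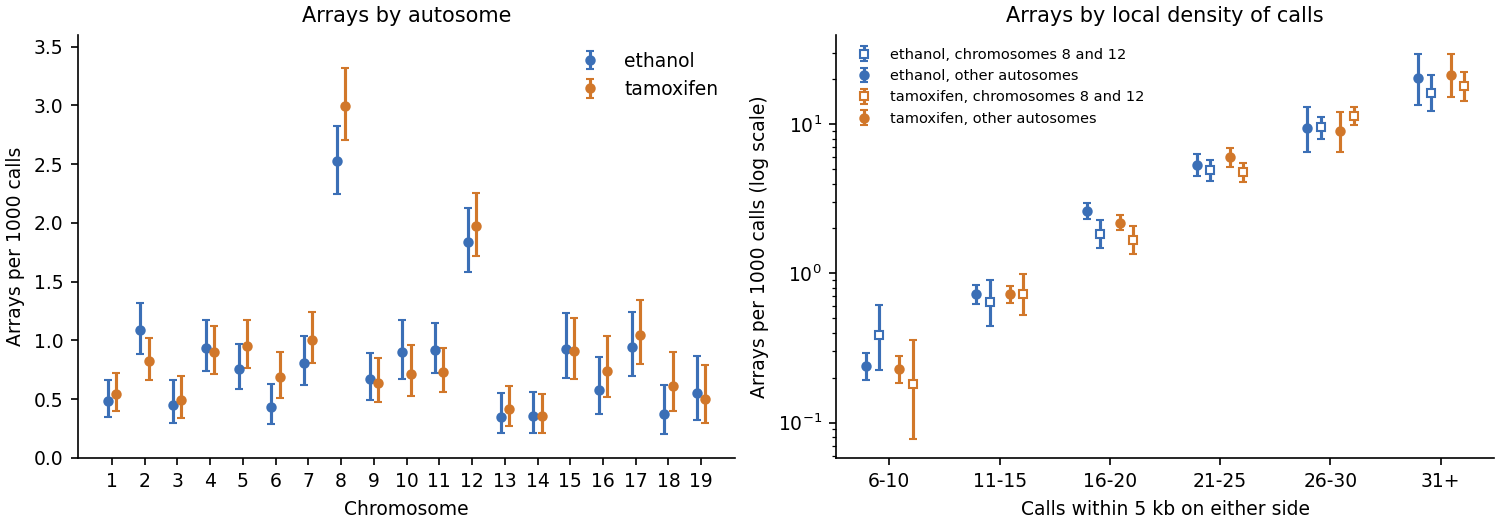
Left, arrays per 1000 calls on each autosome; right, the same by the number of calls within 5 kb on either side (log scale), for chromosomes 8 and 12 (open squares) and the other autosomes (filled circles). Blue is ethanol, orange tamoxifen, and bars are Poisson intervals. Chromosomes 8 and 12 stand above all others on the left, whereas on the right their points lie beside those of the other autosomes in most density classes.

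The longest arrays show how the libraries differ in detail. Coordinates are centres on mm9, as the lists hold them, and no gene or sequence is given because no annotation or genome of that build was used here. The ethanol array of 13 calls on chromosome 6, from 47599206 to 47601401, had distances of 150 to 225 bp (SD 24.9), less even than most. Its scores ran from 88.9 at position 1 to 1138.1 at position 9. The tamoxifen library had 10 calls there, each within 40 bp of an ethanol call, and lacked those at positions 1, 5 and 12. Position 9 was also the strongest of the tamoxifen calls there, with a score of 1012.1 in that list, where 6 successive calls from 47600111 to 47601051 formed a tamoxifen array.

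The ethanol array of 11 calls on chromosome 8 (125641896 to 125643836, spacing 194 bp, SD 16.6) faced 8 tamoxifen calls in a longest run of 4. The ethanol calls at positions 2, 7 and 8, with scores of 65.3, 136.1 and 143, had no tamoxifen call within 40 bp. The array of 10 calls on chromosome 16 (10868316 to 10869981, spacing 185 bp, SD 17.0) was weaker, with scores of 67.5 to 184.6. All but 2 of its calls had a tamoxifen partner within 20 bp, the first 5 of them as a run. All 6 ethanol arrays of 9 calls were on chromosome 8. The most even of them ran from 68234081 to 68235806 with a wide spacing of 215.6 bp (SD 9.43), and its 9 calls were the only ones in the 10 kb around it. The tamoxifen library held 7 of its 9 calls, all within 15 bp. The next (73986706 to 73988101) was closely spaced at 174.4 bp (SD 10.5), and the 5 tamoxifen calls in it lay within 10 bp of ethanol calls.

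Among tamoxifen arrays, the longest had 10 calls on chromosome 12 (114574871 to 114576626, spacing 195 bp, SD 19.04, scores 53.1 to 460.6). The ethanol library had 7 calls there, of which 3 lay within 20 bp of tamoxifen calls. The most even array of 9 calls, on chromosome 4 (136765496 to 136767036), was spaced 192.5 bp with an SD of 8.02 bp, and all 6 ethanol calls in it lay within 10 bp of tamoxifen calls. The array of 9 on chromosome 7 (71227731 to 71229191, spacing 182.5 bp) was strong, with scores of 164.3 to 971.4, in a region of 41 tamoxifen and 39 ethanol calls in 10 kb. The ethanol library had 6 calls there, all within 40 bp of tamoxifen calls. A further pair of arrays of 9 was on chromosome 8, from 124574241 to 124575736 with 6 ethanol calls and from 73233911 to 73235426 with 7.

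The most even arrays of 6 or more calls were mostly found in both libraries. The ethanol array from 126306936 to 126307826 on chromosome 8 had distances of 170 to 185 bp (SD 5.70) and scores of 85.8 to 645.7, and the tamoxifen library had all 6 calls within 20 bp. The same held for the ethanol array from 72939741 to 72940636 on chromosome 8 (SD 6.52). In contrast, the ethanol array on chromosome 12 from 92712171 to 92713251, spaced 216 bp (SD 6.52) with scores of 54.5 to 180.7, had only 2 tamoxifen calls, at positions 3 and 6. The 3 most even tamoxifen arrays, with SDs of 4.47, 5 and 5.48 bp, were full in the ethanol library. They lay on chromosome 8 at 124823176 to 124824116 and 125634896 to 125635801 and on chromosome 2 at 32402336 to 32403286.

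Long arrays of the few class differed in which of their calls had a partner in the other library. The ethanol array of 8 calls on chromosome 17 (28204321 to 28205651, SD 8.16) faced 4 tamoxifen calls, all within 25 bp of ethanol calls, while the ethanol positions 2, 4, 5 and 6 had none. The ethanol arrays of 8 calls on chromosome 8 (127820986 to 127822286) and chromosome 9 (106563626 to 106565036) faced 5 and 6 tamoxifen calls. In the tamoxifen library the array of 9 on chromosome 5 (15126051 to 15127626) had scores of 133.9 to 1315. Its strongest call had an ethanol partner at the same centre, and 5 ethanol calls in all were present without a run of 3. The tamoxifen arrays of 8 calls on chromosome 8, from 4261771 to 4263196 and from 13576761 to 13578191, each faced 5 ethanol calls. In all 6 of these arrays at least 4 array calls had a partner within 40 bp.

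**Figure D5:**
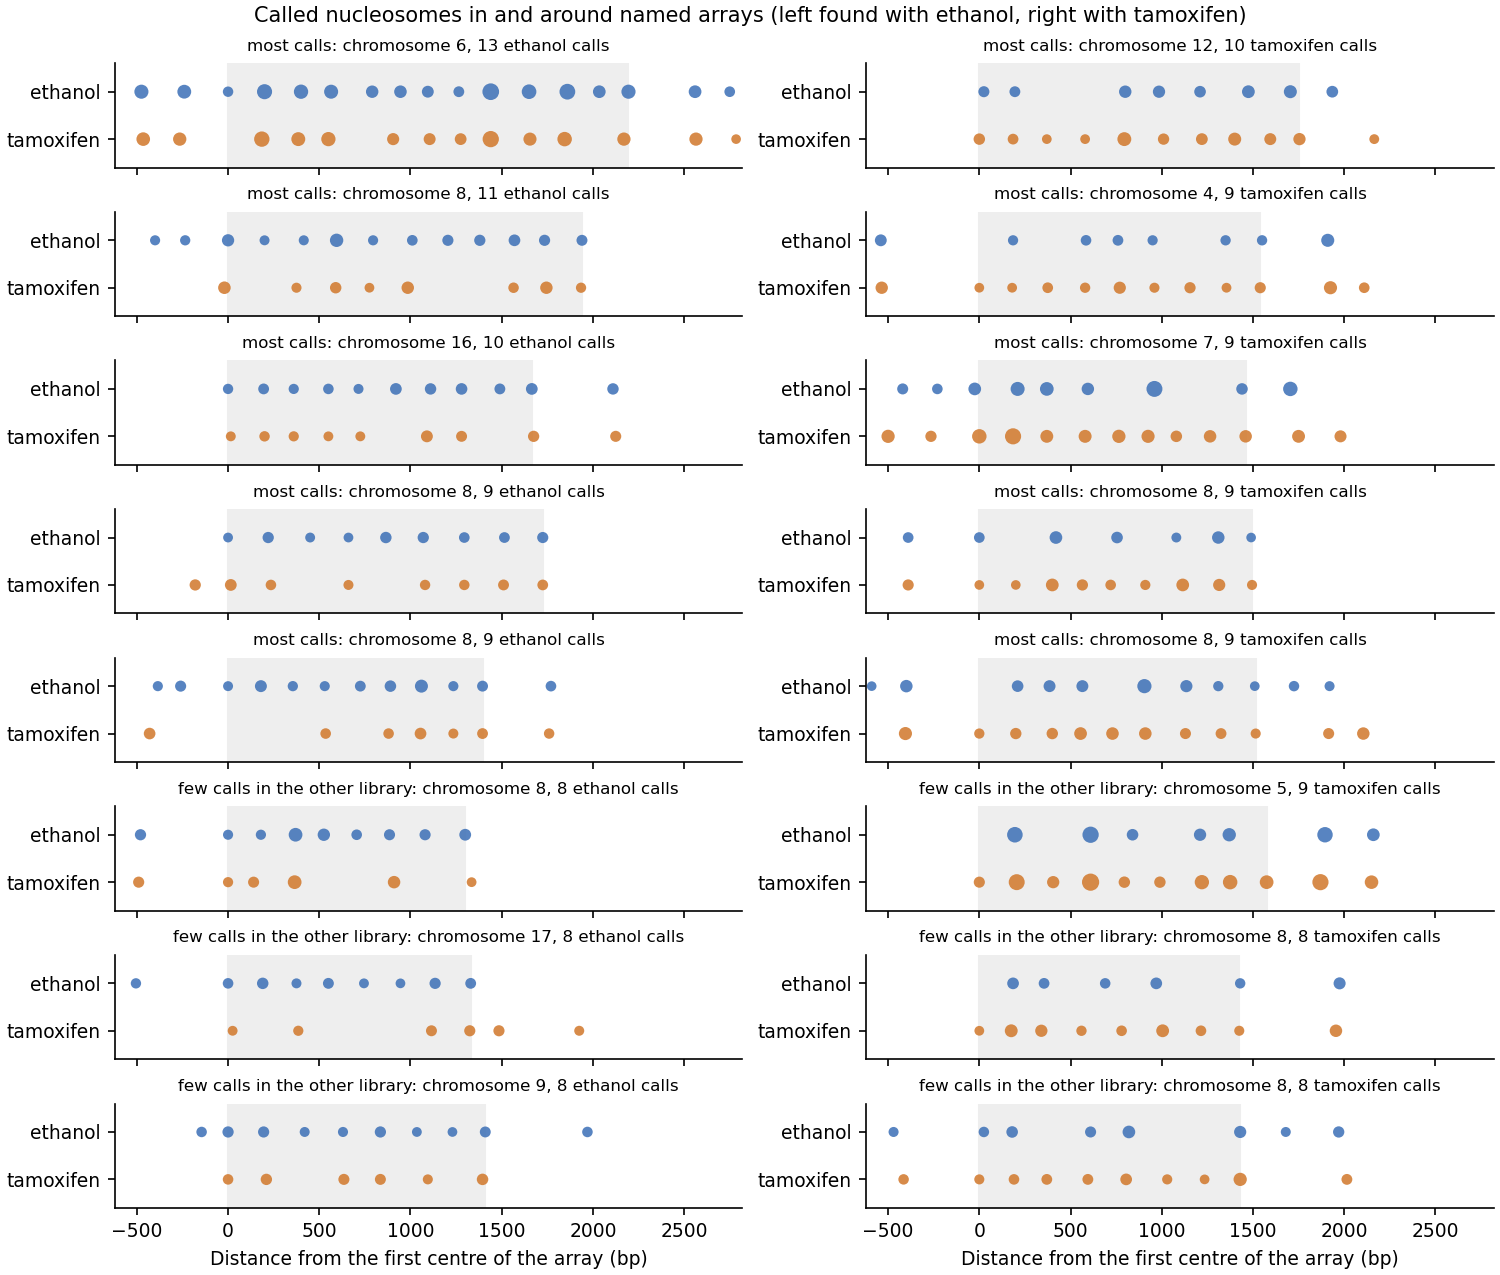
Called nucleosomes of both libraries in and around the named long arrays, by distance from the first centre of the array (bp). Each point is a call, larger for a higher score, blue for ethanol and orange for tamoxifen, and the grey band is the array, found with ethanol on the left and with tamoxifen on the right. In the bottom 3 rows, where the other library was of the few class, its calls mostly stand beneath or above calls of the array.

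The remaining named pairs of overlapping arrays were offset rather than equal. On chromosome 8 the ethanol array of 7 calls from 73234816 to 73236031 had its first 4 calls within 15 bp of the last 4 calls of the tamoxifen array of 9 from 73233911. On chromosome 3 an ethanol array of 8 calls from 3006691 to 3007961 overlapped by its first 3 calls a tamoxifen array of 8 from 3005791 to 3007006, with spacings of 181.4 and 173.6 bp.

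A small set of arrays had very high scores. The mean score exceeded 1000 in 13 ethanol and 17 tamoxifen arrays, while the median array stood at 130.9 and 127.2. Of these, 7 ethanol arrays were full in the tamoxifen library and 6 tamoxifen arrays in the ethanol library. Within the first 4 Mb of a chromosome lay 5 of the 13 and 4 of the 17, against 27 of all ethanol and 40 of all tamoxifen arrays. The highest mean score, 3241.25, belonged to an ethanol array of 6 calls on chromosome 11 from 3027056 to 3028006. On the same chromosome a tamoxifen array of 9 calls from 3034686 to 3036251 had a mean score of 3046, and an ethanol array of 6 calls ended at the same centre. A second group lay near 20 Mb on chromosome 8, with 2 ethanol and 7 tamoxifen arrays between 19698006 and 19968761. How reads that map to several places were treated is not given in the sources used here, and its part in these scores was not tested.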

How the data were processed

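For each library the authors deposited the called nucleosomes with start, end and a score. Bowtie 0.12.9 and the mm9 build are named, per the submitters' processing notes. Which program called the nucleosomes, at which cutoffs, and what the deposited score measures is not given in the sources used here. All coordinates are multiples of 10 bp plus 1. Scores were compared within a list, not between lists.

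Groups follow the sample titles. Centres, runs, classes and nearest calls of the other library were computed in Python 3.11.15 (scipy 1.17.1, pandas 2.3.3, numpy 2.4.6; plots, matplotlib 3.10.9), and the procedures were tested on simulated calls. Counts carry exact Poisson intervals, shares Wilson intervals, ratios of counts log-normal ones, and differences of means or medians normal ones.

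The arrays, classes and comparisons were chosen with earlier results of these data known. Score classes, density classes, dense groups outside arrays, profiles around ends and the high-score set were added after the arrays had been seen. Named arrays are, per library, the 5 with most calls (ties broken by the lower SD of distances), the 3 most even with 6 or more calls, the 3 longest with few calls in the other library (ties, higher mean score), and the 3 overlapping pairs with most calls.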

Additional observations from a re-analysis of the deposited data

How the results depend on the processing

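With distances of 160 to 220 bp there were 723 ethanol and 874 tamoxifen arrays, with calls at or above the lower score quartile 620 and 689, without chromosomes 8 and 12 764 and 862, for runs of 4 or more 5024 and 5812 and for 6 or more 377 and 405; each removes or adds arrays by construction. The ratio per 1000 calls, 1.07, became 0.901 for the highest-scoring tamoxifen calls and 0.980 for runs of 6 or more, so its direction turned. The difference in mean spacing was -1.18 bp without chromosomes 8 and 12, and the difference in within-array SD, whose interval holds 0, changed sign between settings. The share of full arrays in the other library, 17.2% for ethanol and 14.6% for tamoxifen, was 14.7% and 12.1% at 160 to 220 bp and 9.25% and 7.89% without a margin. It was 14.7% for ethanol when every call needed a partner within 40 bp, and 15.3% and 17.0% with the limited list, where the order of the libraries turned. Array calls shared within 20 bp, 57.3% and 55.0%, were 55.5% and 52.9% at 140 to 240 bp, 59.0% and 57.6% at 160 to 220 bp, 58.6% and 56.1% above the lower quartile, and 55.5% and 57.4% with the limited list. They were 58.7% for ethanol by starts, 53.6% for tamoxifen without chromosomes 8 and 12, 41.7% and 39.1% within 10 bp and 68.0% and 66.0% within 40 bp. The score difference with tamoxifen was 10.4 above the lower quartile. Arrays with another within 5 kb made up 6.52% and 8.85%, and within 20 kb 19.5% and 23.4%. What else moved these values was not tested; the arrays themselves change with the rule. No paired analysis was possible because only 1 library represents each treatment. Missing calls limit every value: the read depth is unknown.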

Other observations

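These values were chosen after they were seen. The X chromosome, outside the definition used here, held 10 ethanol arrays (Poisson interval 4.80 to 18.4) among 9935 calls and 15 tamoxifen arrays (8.40 to 24.7) among 11234 calls, 1.01 and 1.34 per 1000 calls.

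The 6 arrays without any call of the other library were weak. Both ethanol ones, on chromosome 13 (4074341 to 4075186) and chromosome 15 (72827331 to 72828156), had 5 calls with mean scores of 73.2 and 79.4. The 4 tamoxifen ones had 5 or 6 calls and mean scores of 61.1 to 81.2. On chromosome 13 the nearest tamoxifen calls lay 7020 bp before and 350 bp after the array, and the tamoxifen array on chromosome 2 (145975881 to 145976636) had its nearest ethanol calls 6245 bp before and 1360 bp after.

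A tamoxifen array on chromosome 10, from 23647751 to 23648466, had 5 calls with scores of 1075 to 2209.3 but 1 ethanol call in the same interval. That call was at the same centre, 23648091, as the third call of the array and scored 2180.4 in the ethanol list. In the 16 other tamoxifen arrays with a mean score above 1000 the ethanol library had 4 to 7 calls.

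In 3 tamoxifen arrays all distances were equal on the 5 bp steps of the lists, at 200 bp on chromosome 2 (179505316 to 179506116), 170 bp on chromosome 4 (140621571 to 140622251) and 195 bp on chromosome 19 (25541306 to 25542086). The ethanol library had 4, 5 and 3 calls at these places. The most even ethanol array, on chromosome 11 from 45538626 to 45539471, was spaced 211.25 bp with an SD of 2.5 bp and had 5 tamoxifen calls.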
